A study of Mus musculus with 12 samples.

Results

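The autosomal response to silencing of the X chromosome was measured as an interaction between *Xist* line and doxycycline (DOX). For each gene, the mean DOX-minus-noDOX log2 change of the lines whose *Xist* silences, *Xist* FL and *Xist* ΔB+C, was compared with that of *Xist* ΔA, whose *Xist* lacks the A repeat and does not silence. A positive interaction means that the gene went up more, or down less, with DOX in the silencing lines than in *Xist* ΔA. An effect of DOX itself that is the same in every line cancels out of this difference. Genes on chromosomes 1 to 19 with at least 1 CPM (reads scaled to the library's total) in at least 6 of the 12 libraries were members. They were 12721 of the 24627 genes in the files and of the 13191 genes that passed this filter. The CPM values given below were also corrected with TMM factors.

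The RNA came from J1 mouse ES cells, which carry 1 X chromosome, collected after 2 days of differentiation in serum medium without LIF. DOX was present at 1.5 μg/ml in 1 culture of each pair and absent from the others (noDOX). In every line, controls included, the endogenous *Xist* gene is under a tetracycline-inducible promoter. *Xist* FL makes the full-length RNA, *Xist* ΔA an RNA without the A repeat, and *Xist* ΔB+C an RNA without the B and C repeats. Each of the 6 combinations of line and DOX has 2 biological replicates. *Xist* ΔB+C was derived from *Xist* FL by CRISPR/Cas9 editing, each form of *Xist* is represented by a single line, and the effect of a deletion cannot be told apart from other differences between lines. These XY cells have no second X chromosome to make up for genes that are silenced, and cells whose X is not coated or not silenced are part of the same RNA. Fewer cells of a type and less RNA per cell cannot be told apart in such bulk libraries. Replicate 2 of ΔB+C with DOX stands apart in its preparation, from 100 ng of RNA (low input), where every other library took 1000 ng.

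*Xist* RNA spreads from its gene over the chromosome that makes it. The A repeat, near its 5′ end, recruits SPEN and is needed for gene silencing, whereas the B and C repeats bring Polycomb complexes to the X chromosome. X-linked genes encode subunits of many complexes whose other subunits are autosomal, as well as signalling proteins that shape the exit from naive pluripotency. The comparison asks which autosomal genes, and which of their functions, respond when the only X chromosome is silenced.

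The libraries held 31337490 to 41240470 counts. *Xist* was at 2.49 to 8.29 CPM in the 6 noDOX libraries and at 569 to 1792 CPM in the 6 DOX libraries, with *Xist* ΔA at the low end of the latter range. Among 464 X-linked genes, *Xist* left out, the median interaction was −0.60 on the log2 scale. The 10 markers of ES cells and their early differentiation summed to 4091 to 5948 CPM, and each was at 12.6 CPM or more in every library, whereas 2 of the 3 markers of blood and endothelium, *Ptprc* and *Hbb-bh1*, were at 0.292 CPM or less. The other, *Pecam1*, which ES cells also make, ranged from 14.0 to 142 CPM and was higher with DOX in all 6 pairs, most in the silencing lines. In the text, CPM values are given for replicate 1 and then replicate 2, and interactions as log2 difference ± SE.

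Because the TMM factors were computed from autosomal genes, the centre of their interactions is set by the scaling, and a shift of all autosomal genes together could not appear. The median interaction was 0.0023, with quartiles at −0.18 and 0.21, and 290 of the 12721 genes exceeded 1 on the log2 scale in either direction, 206 upwards and 84 downwards. Tested with the quasi-likelihood method of edgeR, with p-values adjusted by Benjamini–Hochberg across all 13191 genes, 9 autosomal genes were higher (0.0707%) and 5 were lower (0.0393%) at an adjusted p of 0.05. At an unadjusted p of 0.05 there were 742 genes higher (5.83%) and 718 lower (5.64%). Libraries with the same replicate number deviated together, and a fit that took this number as a block had a median SE of 0.136 in place of 0.214. It called 656 genes higher (5.16%) and 549 lower (4.32%), 9.47% of genes in all, and all 14 genes of the fit without the block were among them.

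The interaction was computed from replicate 1 libraries alone and from replicate 2 libraries alone, which share no library. Across the 12721 genes the Pearson correlation of both values was 0.677, and 77.9% of genes had the same sign. Genes are not independent replicates, and this correlation describes the libraries only. The scatter of replicate 1 against replicate 2 also marks the called genes, whose agreement in sign follows from the call, since it was made on these same libraries.

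**Figure D1:**
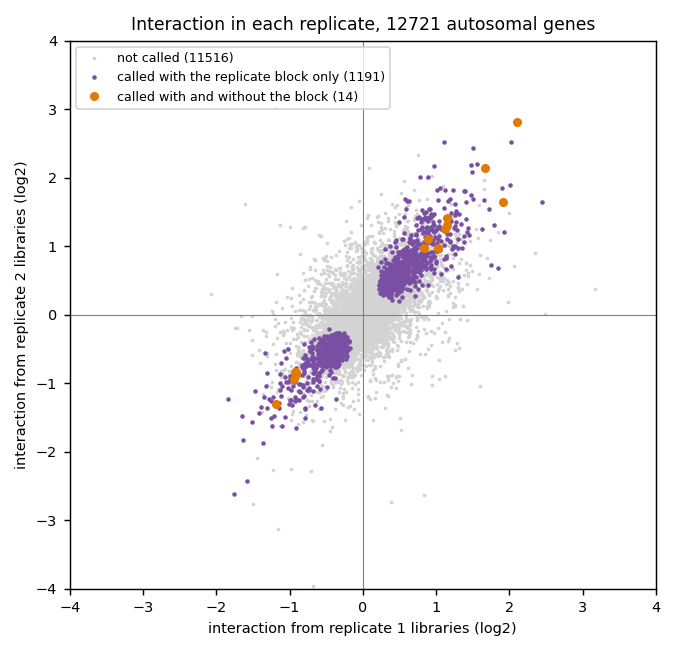
Interaction (log2; silencing lines minus *Xist* ΔA) of each of 12721 autosomal genes from replicate 1 libraries (x axis) and replicate 2 libraries (y axis). Grey points were not called, purple points were called only with the replicate block (the rest of the 1205), and orange points with and without it (14 genes); the call used both replicates, so the place of the called genes in the quadrants of equal sign follows from it.

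By line, and without the block, *Xist* FL against *Xist* ΔA gave 0 autosomal calls (411 genes higher, 3.23%, and 357 lower, 2.81%, at an unadjusted p of 0.05), and *Xist* ΔB+C against *Xist* ΔA gave 5 genes higher (0.0393%) and 4 lower (0.0314%), with 700 (5.5%) and 698 (5.49%) at an unadjusted p of 0.05. With the block these became 176 higher (1.38%) and 90 lower (0.707%) for FL and 562 higher (4.42%) and 458 lower (3.6%) for ΔB+C. Both comparisons subtract the same 4 ΔA libraries, so they are not independent of each other. *Xist* ΔA itself gave 0 autosomal calls for DOX against noDOX with edgeR, with the block or without it. At an unadjusted p of 0.05, 28 of its genes were higher (0.22%) and 69 lower (0.542%), and DESeq2 called 1 gene.

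The genes past the threshold without the block were of mixed function. Of the 9 higher genes, those for proteins of the cell surface and membrane are given first. *Cdh3* encodes P-cadherin, a cell adhesion molecule (chromosome 8, 106510891 to 106557297, plus strand; positions are from GENCODE vM21 on GRCm38, the mm10 build of the files). Its level was 42.6 and 33.0 CPM in FL noDOX, 86.5 and 89.6 in FL DOX, 51.4 and 41.9 in ΔB+C noDOX, 127 and 136 in ΔB+C DOX, 37.4 and 35.4 in ΔA noDOX and 37.6 and 39.5 in ΔA DOX. The 4 DOX libraries of the silencing lines lay above all other libraries, and the interaction was 1.27 ± 0.17 (edgeR, adjusted p = 0.0234; 1.14 for FL and 1.41 for ΔB+C). *Sdc4*, the heparan sulfate proteoglycan syndecan 4 (chromosome 2, 164424247 to 164443887, minus strand), was at 58.8 and 51.0 CPM in FL noDOX, 97.3 and 111 in FL DOX, 76.2 and 68.9 in ΔB+C noDOX, 153 and 165 in ΔB+C DOX, 58.8 and 49.0 in ΔA noDOX and 49.1 and 46.8 in ΔA DOX. Here too the DOX libraries of the silencing lines were the highest, with an interaction of 1.20 ± 0.15 (adjusted p = 0.0195; 1.09 for FL and 1.30 for ΔB+C). *Sntb2* encodes a syntrophin, an adaptor of the dystrophin complex under the membrane (chromosome 8, 106935750 to 107019714, plus strand), and was at 37.8 and 38.5 CPM in FL noDOX, 52.1 and 64.2 in FL DOX, 51.6 and 51.9 in ΔB+C noDOX, 72.6 and 78.2 in ΔB+C DOX, 59.4 and 64.2 in ΔA noDOX and 46.3 and 52.0 in ΔA DOX. In the silencing lines its DOX libraries lay above their noDOX libraries, and in ΔA below them, giving 0.91 ± 0.14 (adjusted p = 0.0395; 0.94 for FL and 0.87 for ΔB+C).

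*Cpz* had the largest interaction of the 14 genes. It encodes carboxypeptidase Z, a secreted enzyme with a Wnt-binding domain (chromosome 5, 35502218 to 35525698, minus strand), and was at 2.76 and 1.91 CPM in FL noDOX, 7.62 and 8.44 in FL DOX, 3.58 and 2.02 in ΔB+C noDOX, 13.4 and 15.0 in ΔB+C DOX, 4.60 and 3.86 in ΔA noDOX and 3.42 and 3.13 in ΔA DOX. The DOX libraries of the silencing lines lay above all others, and the interaction was 2.43 ± 0.34 (adjusted p = 0.0262; 2.15 for FL and 2.71 for ΔB+C). *Slc39a14*, a zinc and iron importer (chromosome 14, 70303469 to 70351425, minus strand), was at 80.1 and 73.0 CPM in FL noDOX, 135 and 139 in FL DOX, 61.0 and 73.5 in ΔB+C noDOX, 110.0 and 125 in ΔB+C DOX, 83.2 and 85.3 in ΔA noDOX and 71.0 and 78.4 in ΔA DOX. Its groups separated in the same way, at 1.00 ± 0.14 (adjusted p = 0.0262; 1.01 for FL and 0.98 for ΔB+C). The lysosomal mannosidase gene *Man2b1* (chromosome 8, 85083270 to 85098282, plus strand) was at 59.5 and 51.3 CPM in FL noDOX, 85.9 and 92.9 in FL DOX, 71.8 and 59.6 in ΔB+C noDOX, 121 and 133 in ΔB+C DOX, 58.1 and 55.4 in ΔA noDOX and 48.6 and 51.8 in ΔA DOX. Again no other library reached the DOX libraries of the silencing lines, and the interaction was 1.00 ± 0.14 (adjusted p = 0.0302; 0.87 for FL and 1.12 for ΔB+C).

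The remaining higher genes act in the nucleus or the cytoplasm. *Zfp750* encodes a zinc finger transcription factor of epidermal differentiation (chromosome 11, 121510978 to 121519333, minus strand), at 7.81 and 5.40 CPM in FL noDOX, 14.6 and 16.2 in FL DOX, 6.34 and 5.02 in ΔB+C noDOX, 14.1 and 17.5 in ΔB+C DOX, 5.67 and 4.48 in ΔA noDOX and 3.65 and 3.29 in ΔA DOX. DOX libraries were the highest in the silencing lines and the lowest in ΔA, with an interaction of 1.90 ± 0.28 (adjusted p = 0.0323; 1.77 for FL and 2.03 for ΔB+C). *Trim36*, a RING-type ubiquitin ligase (chromosome 18, 46165300 to 46212607, minus strand), was at 8.30 and 7.06 CPM in FL noDOX, 15.7 and 17.5 in FL DOX, 7.08 and 6.56 in ΔB+C noDOX, 18.6 and 17.6 in ΔB+C DOX, 11.7 and 8.22 in ΔA noDOX and 6.90 and 6.76 in ΔA DOX. The DOX libraries of the silencing lines again exceeded all others, at 1.81 ± 0.22 (adjusted p = 0.0195; 1.66 for FL and 1.95 for ΔB+C). *Arhgef28*, an exchange factor for small GTPases (chromosome 13, 97899469 to 98206439, minus strand), was at 7.18 and 5.80 CPM in FL noDOX, 11.4 and 13.2 in FL DOX, 7.77 and 6.80 in ΔB+C noDOX, 15.3 and 14.2 in ΔB+C DOX, 11.4 and 11.4 in ΔA noDOX and 9.12 and 10.0 in ΔA DOX. It was lower in the noDOX libraries of the silencing lines than in any ΔA library, and its DOX libraries reached or passed the ΔA level, for an interaction of 1.22 ± 0.19 (adjusted p = 0.0395; 1.17 for FL and 1.27 for ΔB+C).

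The 5 lower genes included a transcription factor of the interferon response and an enzyme of serine synthesis. *Irf1* (chromosome 11, 53770014 to 53778374, plus strand) was at 147 and 157 CPM in FL noDOX, 78.0 and 67.2 in FL DOX, 113 and 108 in ΔB+C noDOX, 64.1 and 54.9 in ΔB+C DOX, 81.7 and 74.8 in ΔA noDOX and 102 and 86.3 in ΔA DOX. Without DOX the silencing lines lay above every ΔA library, and their DOX libraries lay below their noDOX libraries, whereas in ΔA the DOX libraries lay above. The interaction was −1.25 ± 0.15 (adjusted p = 0.0195; −1.33 for FL and −1.16 for ΔB+C). *Psat1*, the phosphoserine aminotransferase of the serine pathway (chromosome 19, 15904678 to 15947337, minus strand), was at 559.8 and 606 CPM in FL noDOX, 455 and 428 in FL DOX, 540.4 and 624 in ΔB+C noDOX, 334 and 367 in ΔB+C DOX, 385 and 459 in ΔA noDOX and 517 and 528 in ΔA DOX. Its libraries were ordered like those of *Irf1*, with an interaction of −0.87 ± 0.14 (adjusted p = 0.0395; −0.71 for FL and −1.04 for ΔB+C).

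*Smo* encodes Smoothened, the membrane protein that transmits the Hedgehog signal (chromosome 6, 29735503 to 29761365, plus strand), and was at 119 and 139.5 CPM in FL noDOX, 89.4 and 77.6 in FL DOX, 175 and 177 in ΔB+C noDOX, 81.1 and 84.3 in ΔB+C DOX, 154 and 157 in ΔA noDOX and 175 and 155 in ΔA DOX. The DOX libraries of the silencing lines lay below all others, and the interaction was −0.94 ± 0.13 (adjusted p = 0.0262; −0.71 for FL and −1.17 for ΔB+C). *Vrtn*, a gene known for its role in vertebral number (chromosome 12, 84641019 to 84651455, plus strand), was at 114 and 128 CPM in FL noDOX, 73.0 and 68.9 in FL DOX, 115 and 122 in ΔB+C noDOX, 67.3 and 66.6 in ΔB+C DOX, 106 and 111 in ΔA noDOX and 122 and 107 in ΔA DOX. The same 4 libraries were the lowest, at −0.88 ± 0.12 (adjusted p = 0.0234; −0.85 for FL and −0.91 for ΔB+C). *Car4*, a carbonic anhydrase anchored to the cell surface (chromosome 11, 84957786 to 84966044, plus strand), was at 73.6 and 79.8 CPM in FL noDOX, 47.4 and 49.7 in FL DOX, 79.4 and 76.9 in ΔB+C noDOX, 50.4 and 44.2 in ΔB+C DOX, 61.6 and 55.3 in ΔA noDOX and 74.1 and 60.2 in ΔA DOX. These 4 libraries were once more the lowest, and the interaction of −0.89 ± 0.15 had the largest adjusted p of the 14 genes, 0.0492 (−0.86 for FL and −0.93 for ΔB+C).

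**Figure D2:**
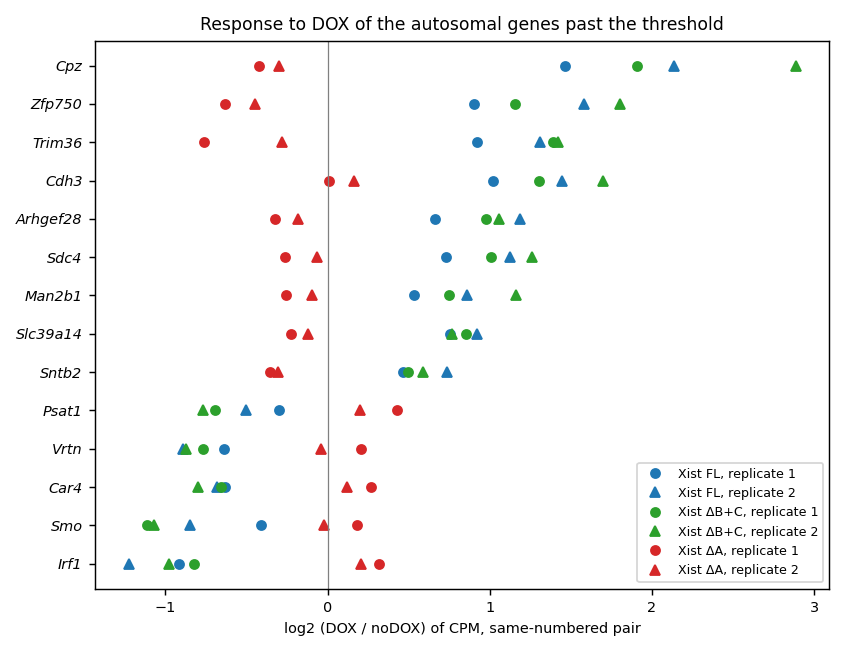
Log2 ratio of DOX to noDOX (CPM) in each same-numbered pair of libraries (x axis) for the 14 autosomal genes past the threshold without the replicate block. Blue, green and red points are FL, ΔB+C and ΔA, circles are replicate 1 and triangles replicate 2. In every gene the 4 pairs of the silencing lines lie on one side of both *Xist* ΔA pairs, which largely follows from the call on these same libraries.

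For all 14 genes, the changes of the 4 silencing pairs lay on one side of both ΔA pairs, as they did in 23.1% (higher) and 22.7% (lower) of all autosomal genes. In the 14 genes this largely follows from the call, made on these same libraries, and adds no support to it. The 14 calls depended on single libraries: leaving out *Xist* ΔB+C DOX replicate 1 kept all 14, leaving out FL noDOX replicate 1 kept 9, FL DOX replicate 1 kept 8, ΔB+C DOX replicate 2 kept 3 and ΔB+C noDOX replicate 1 kept 2, and leaving out any ΔA library, FL noDOX replicate 2, FL DOX replicate 2 or ΔB+C noDOX replicate 2 kept 0. With the block all 14 remained, also when the low input library was left out. On either side of the threshold stood *Arhgef28* and *Car4* just inside and *Kremen1* (0.78 ± 0.13, adjusted p = 0.0513), a Wnt co-receptor partner of Dickkopf, and *Psmb10* (−1.06 ± 0.18, adjusted p = 0.0515) just outside.

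By the rule for named genes, the 14 were followed by 3 higher and 7 lower genes, the ones with the smallest p with the block in their direction among those averaging 5 CPM or more whose silencing pairs all lay on one side of both ΔA pairs. *Ddit4*, an inhibitor of mTORC1, was at 90.8 and 80.0 CPM in FL noDOX, 145 and 134 in FL DOX, 91.3 and 72.9 in ΔB+C noDOX, 164 and 162 in ΔB+C DOX, 122 and 102 in ΔA noDOX and 108 and 104 in ΔA DOX. The DOX libraries of the silencing lines were the highest, and the interaction of 0.93 ± 0.16 had an adjusted p of 0.0549 without the block and 0.000397 with it. *Ptprv* stood at 1.18 ± 0.44 (0.3 and 0.000352) and 1700007K13Rik at 1.22 ± 0.25 (0.0975 and 0.000487). *Ptprv* is named for a receptor tyrosine phosphatase, but the GENCODE annotation types it as a processed transcript, not as protein-coding. The lower genes were *Irgm1* (−1.09), *Trim67* (−1.03), *Lrp8* (−1.13), *Herpud1* (−0.78), *Imp3* (−0.62), *Psmb10* (−1.06) and *Ogfr* (−0.59), with adjusted p-values of 0.0515 to 0.658 without the block and 0.000563 to 0.00279 with it. *Irgm1* is an immunity-related GTPase, *Lrp8* a lipoprotein receptor, *Herpud1* a component of protein degradation at the endoplasmic reticulum, and *Imp3* a factor of ribosomal RNA processing.

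Gene lists were then described by the number of their members called and by their median interaction, beside 5.16% higher and 4.32% lower among all autosomal genes with the block. Without the block, *Psat1* was the only member of the 37 functional lists past the threshold, so the counts that follow, and the single values beside them unless a fit is named, are those with the block. List medians are of the estimates without the block. The plot of list medians gives 1 line for each list with at least 5 members tested.

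**Figure D3:**
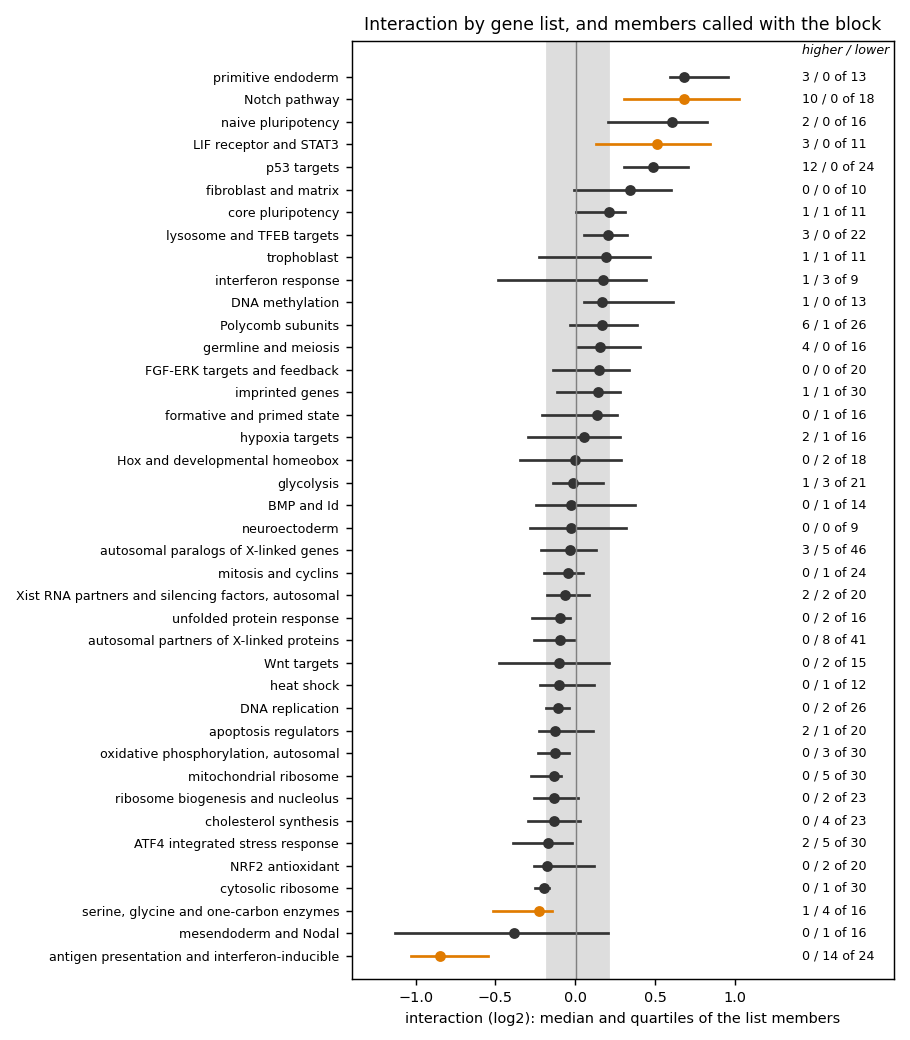
Median (point) and quartiles (line) of the interaction (log2, without the block) over the tested members of each gene list, with the number of members called higher and lower with the replicate block at the right. Dark grey lists are the functional lists and orange lists were chosen after values were seen. The light grey band spans the quartiles of all 12721 autosomal genes. Lists with medians outside it include antigen presentation (−0.85), mesendoderm (−0.38), p53 targets (0.49), naive pluripotency (0.60), primitive endoderm (0.68) and Notch (0.68).

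Among targets of p53, the transcription factor that halts the cell cycle or triggers apoptosis under stress, 12 of 24 members tested were called higher and 0 lower. The median interaction was 0.49 and 24 members had a positive value. *Mdm2*, the ubiquitin ligase that degrades p53 and is itself a target, was at 182 and 117 CPM in FL noDOX, 241 and 216 in FL DOX, 175 and 118 in ΔB+C noDOX, 323 and 255 in ΔB+C DOX, 209 and 141 in ΔA noDOX and 171 and 135 in ΔA DOX. The 4 DOX libraries of the silencing lines were the highest of the 12. Its interaction of 0.99 ± 0.34 had an adjusted p of 0.266 without the block and 0.00119 with it. The other called members were *Plk2* (1.13), *Ddit4* (0.93), *Trp53inp1* (0.75), *Btg2* (0.72), *Polk* (0.72), *Pmaip1* (0.61), *Sesn2* (0.53), *Gtse1* (0.52), *Tnfrsf10b* (0.51), *Ei24* (0.43) and *Zmat3* (0.38). They include a stress kinase (*Plk2*), inhibitors of mTORC1 signalling (*Ddit4*, *Sesn2*), a translesion DNA polymerase (*Polk*), antiproliferative factors (*Btg2*, *Trp53inp1*), and the apoptotic proteins NOXA (*Pmaip1*) and a TRAIL receptor (*Tnfrsf10b*).

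The p53 list was not uniform. *Cdkn1a*, the cell cycle inhibitor p21, had an interaction of 0.29 ± 0.10 (adjusted p = 0.074), with DOX changes of −0.03 and 0.00 in FL, 0.24 and 0.43 in ΔB+C and −0.16 and −0.10 in ΔA on the log2 scale. *Bax*, a pore-forming protein of apoptosis, was at 0.11 ± 0.09 (adjusted p = 0.481), and *Ccng1*, encoding cyclin G1, at 0.33 ± 0.11 (adjusted p = 0.0784). For the called members the ΔA change was below 0 in both pairs, between −0.39 and −0.04, with *Ddit4* (−0.18 and 0.03) as the exception. The median DOX change over the list was 0.28 in FL, 0.43 in ΔB+C and −0.11 in ΔA. Against ΔA, 6 members were called higher in FL and 12 in ΔB+C, beside 1.38% and 4.42% of all autosomal genes. Without the low input library, 12 members were called higher.

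Of 20 regulators of apoptosis, 2 were called higher and 1 lower, with a median of −0.13. *Apaf1*, the scaffold of the apoptosome, stood at 0.87 ± 0.20 without the block (adjusted p = 0.12, and 0.00129 with it), and the BH3-only gene *Bmf* at 0.72 ± 0.18 (adjusted p = 0.0298, and 0.0565 without the low input library). *Cycs*, which encodes the cytochrome c that activates the apoptosome, was lower, at −0.56 ± 0.12 (adjusted p = 0.0142).

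Because *Irf1* and *Psmb10* were among the lower genes, a list of 24 antigen presentation and interferon-inducible genes was made after their values were seen, and its counts are a description only. Of these, 14 were called lower and 0 higher, and the median was −0.85. The products of these genes cut proteins into peptides, carry the peptides into the endoplasmic reticulum and present them on MHC class I, and IRF1 is an activator of several of them. *Psmb8*, a catalytic subunit of the immunoproteasome, was at 27.6 and 34.7 CPM in FL noDOX, 13.4 and 7.35 in FL DOX, 16.9 and 14.1 in ΔB+C noDOX, 6.88 and 3.50 in ΔB+C DOX, 6.75 and 5.78 in ΔA noDOX and 10.1 and 8.18 in ΔA DOX. Its noDOX level in the silencing lines lay above every ΔA library, its DOX level was lower in each of the 4 pairs and overlapped ΔA, and in ΔA the DOX libraries lay above the noDOX libraries. The interaction was −2.13 ± 0.43 without the block (adjusted p = 0.0928, and 0.00733 with it).

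*Psmb10*, another subunit of the immunoproteasome, was at 137 and 158 CPM in FL noDOX, 93.2 and 80.0 in FL DOX, 122 and 127 in ΔB+C noDOX, 77.9 and 58.4 in ΔB+C DOX, 62.0 and 61.6 in ΔA noDOX and 77.8 and 68.6 in ΔA DOX, with the groups in the same order. *Irgm1*, an immunity-related GTPase induced by interferon, was at 62.3 and 49.8 CPM in FL noDOX, 36.7 and 22.5 in FL DOX, 47.8 and 34.2 in ΔB+C noDOX, 31.1 and 19.13 in ΔB+C DOX, 18.4 and 13.5 in ΔA noDOX and 22.4 and 16.2 in ΔA DOX. Here the noDOX libraries of the silencing lines again lay above every ΔA library, but their DOX libraries overlapped them. Also lower were *Psmb9* (−0.83), both subunits of the proteasome activator PA28, *Psme1* (−0.59) and *Psme2* (−0.92), the peptide transporter subunit *Tap2* (−0.96), the trimming peptidase *Erap1* (−1.21), the peptide editor *Tapbpl* (−0.95), the MHC class I gene *H2-K1* (−0.50), and the interferon-inducible genes *Gbp3* (−1.07), *Parp9* (−1.10) and *Nmi* (−0.96, adjusted p = 0.0755 without the low input library).

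Not all members of the pathway followed. *Tap1*, the partner of *Tap2*, had an interaction of 0.51 ± 0.16 (adjusted p = 0.061). In the functional list of 9 interferon response genes, 3 were lower, *Oasl2* (−1.57), *Ifit2* (−1.33) and *Bst2* (−0.48), and *Stat2* was higher (0.59), with a median of 0.17. Without DOX, *Irf1*, *Psmb8*, *Psmb10*, *Irgm1* and *Oasl2* were higher in every library of the silencing lines than in any ΔA library, and the part of this difference between lines in the interaction was not tested. Against ΔA, 9 members of the antigen presentation list were called lower in FL and 10 in ΔB+C, beside 0.707% and 3.6% of all autosomal genes.

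Promoter sequence is shown for *Irf1*, the lower gene with the smallest p. The window, from 150 bases before to 20 after a RefSeq start site (GRCm38.p6, chr11:53769864-53770033, plus strand), holds in capitals a match to GAS, the STAT motif (TTC, any 3 bases, GAA, the same on both strands). The match begins 90 bases before the start site and lies outside the annotated gene.
Irf1: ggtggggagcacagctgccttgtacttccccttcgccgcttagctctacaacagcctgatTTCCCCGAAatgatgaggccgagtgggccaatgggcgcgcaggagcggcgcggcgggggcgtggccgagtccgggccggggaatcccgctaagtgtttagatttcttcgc
The other RefSeq window of *Irf1* had no match. Matches to the interferon response element ISRE (GAAA, any 2 bases, GAAA, on either strand) were found at *Irgm1* (GAAATAGAAA and, overlapping it, GAAACCGAAA, 30 and 24 bases before the start), *Erap1* (TTTCACTTTC, 4 bases before) and *Psme1* (TTTCGCTTTC, 9 bases after), and a GAS match at *Psmb8* (TTCCCAGAA, 97 bases before). In the GENCODE annotation these 5 matches lie in exons of transcripts of the same genes. The genes shown were picked, and members of the list without a match were not counted. Of 32817 windows of 300 bases around RefSeq starts, 8.29% held GAS and 3.43% held ISRE. Those windows are longer than the ones of the matches above, which run from 150 bases before to 20 after a start. Windows were given for 19 of the 24 genes of the list (79.2%), too few for a share over the list, and a match of letters shows no binding.

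Genes of the naive pluripotent state, which are switched off as ES cells differentiate, were mostly positive without being called. Of 16 members, 15 were positive, with a median of 0.60, and 2 were called higher, *Stat3* (0.51), the transcription factor downstream of LIF, and its inhibitor *Socs3* (0.88, adjusted p = 0.0888 without the low input library). *Esrrb*, a nuclear receptor of the naive network, was at 21.8 and 26.5 CPM in FL noDOX, 51.4 and 60.1 in FL DOX, 18.1 and 32.1 in ΔB+C noDOX, 66.0 and 118 in ΔB+C DOX, 33.9 and 109 in ΔA noDOX and 24.8 and 112 in ΔA DOX. DOX libraries lay above noDOX libraries in the silencing lines, but both replicate 2 libraries of ΔA were about as high as the highest of them. The interaction of 1.67 ± 0.62 had an adjusted p of 0.144 with the block and 2.85e-05 when the block was made within each line. *Zfp42* (REX1), with DOX changes of 1.04 and 0.82 in FL, 1.04 and 1.14 in ΔB+C and −0.03 and 0.21 in ΔA on the log2 scale, stood at 0.91 ± 0.36 (adjusted p = 0.165 and 6.77e-05). With the block within each line, 10 members were called higher and 1 lower, where 12.1% of all autosomal genes were higher and 10.4% lower.

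*Nanog* was the one naive gene with a negative value. It was at 144 and 203 CPM in FL noDOX, 119.8 and 141 in FL DOX, 123 and 132 in ΔB+C noDOX, 112 and 123 in ΔB+C DOX, 86.5 and 138 in ΔA noDOX and 116 and 146 in ΔA DOX. It was lower with DOX in each silencing pair and higher in both ΔA pairs, and the interaction was −0.50 ± 0.15 (adjusted p = 0.0561). *Lifr*, the receptor of LIF, was at 21.4 and 13.2 CPM in FL noDOX, 33.2 and 31.3 in FL DOX, 24.0 and 18.8 in ΔB+C noDOX, 42.8 and 39.0 in ΔB+C DOX, 23.6 and 23.1 in ΔA noDOX and 20.6 and 21.1 in ΔA DOX. The DOX libraries of the silencing lines were the highest, with an interaction of 1.08 ± 0.25 without the block (adjusted p = 0.124, and 0.00562 with it). In a list of 11 genes of the LIF pathway chosen after these values were seen, 3 were higher, *Lifr*, *Stat3* and *Socs3*, and 0 lower, with a median of 0.51. Of 11 core pluripotency genes, *Sox2*, also a neural factor, was higher (0.66 ± 0.14, adjusted p = 0.0139), and *Tdgf1*, the Nodal co-receptor CRIPTO, was lower (−0.68 ± 0.13, adjusted p = 0.00906). *Pou5f1* (OCT4) had an interaction of −0.22 ± 0.10 (adjusted p = 0.164).

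**Figure D4:**
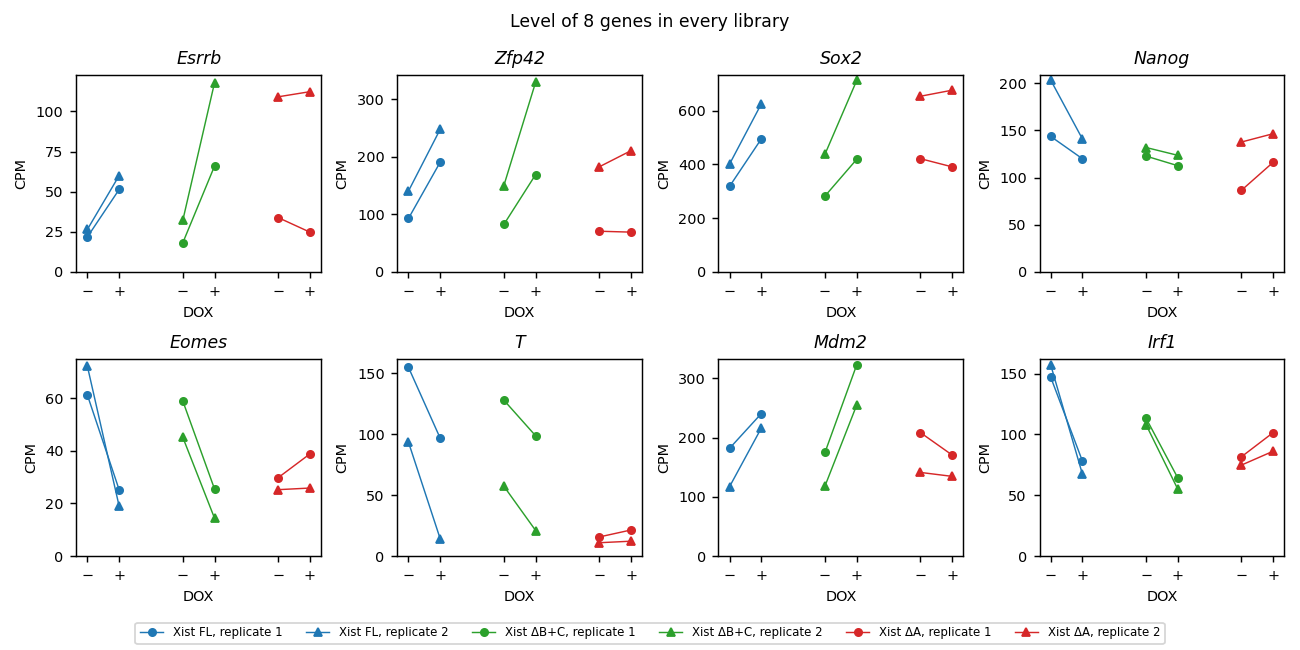
Level (CPM, linear axes from 0) of 8 genes in every library, with noDOX (−) and DOX (+) libraries of each same-numbered pair joined by a line. Blue, green and red are FL, ΔB+C and ΔA, circles are replicate 1 and triangles replicate 2; *Esrrb* and *Zfp42* are high in both replicate 2 libraries of *Xist* ΔA, *Eomes* and *T* are lower with DOX in every pair of the silencing lines, and *Irf1* crosses over between lines.

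Of 16 genes of mesendoderm and the primitive streak, 1 was called lower and 0 higher, with a median of −0.38. This gene, *Eomes*, a T-box factor, was at 61.3 and 72.3 CPM in FL noDOX, 25.2 and 18.9 in FL DOX, 59.0 and 45.2 in ΔB+C noDOX, 25.5 and 14.4 in ΔB+C DOX, 29.8 and 25.3 in ΔA noDOX and 38.9 and 25.9 in ΔA DOX. Without DOX it was higher in the silencing lines than in any ΔA library, and with DOX it was at the low end of the ΔA range or below it. The interaction was −1.73 ± 0.36 without the block (adjusted p = 0.102, and 0.0065 with it). *T* (Brachyury) was at 155 and 93.4 CPM in FL noDOX, 96.5 and 14.0 in FL DOX, 128 and 57.2 in ΔB+C noDOX, 98.6 and 20.9 in ΔB+C DOX, 15.6 and 10.9 in ΔA noDOX and 21.4 and 12.2 in ΔA DOX. In each silencing pair it was lower with DOX, and every noDOX library of these lines lay above ΔA, but replicates differed widely and the interaction was −1.49 ± 0.77 (adjusted p = 0.273). *Evx1*, a homeobox gene of the streak, stood at −1.67 ± 0.49 (adjusted p = 0.0804) and *Mixl1* at −1.14 ± 0.35 (adjusted p = 0.0572).

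The summed level of the mesoderm markers *T*, *Mixl1* and *Mesp1* was 181 and 103 CPM in FL noDOX, 107 and 16.8 in FL DOX, 143 and 62.7 in ΔB+C noDOX and 107 and 24.1 in ΔB+C DOX, but 12.1 to 23.2 in ΔA. The lines thus differed in these markers before DOX, and the part of this in the other results was not tested. Of 16 genes of the formative and primed state, 1 was lower, *Lef1* (−0.46 ± 0.11), a Wnt effector. *Fgf5*, which marks the primed epiblast, had an interaction of −1.39 ± 0.43 (adjusted p = 0.0938, and 0.000348 with the block within each line).

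Primitive endoderm genes, which a part of differentiating ES cells turn on, had 13 of 13 members positive and a median of 0.68. Over this list the median DOX change was 0.46 in FL, 0.54 in ΔB+C and −0.29 in ΔA, so a fall in ΔA is part of the interaction. Called higher were 3, the transcription factor *Foxq1* (1.30), the basement membrane collagen *Col4a2* (1.14) and the endocytic adaptor *Dab2* (0.69, adjusted p = 0.0586 without the low input library). The defining factors were low. *Gata4*, *Gata6*, *Sox17*, *Sox7* and *Pdgfra* summed to 7.82 to 25.3 CPM, with FL noDOX lowest and ΔB+C DOX highest. *Gata4* stood at 0.62 ± 0.30 (adjusted p = 0.203) and *Gata6* at 0.82 ± 0.45 (adjusted p = 0.256). The trophoblast list had *Krt7* (1.04) higher and *Eomes* lower of 11, and its markers summed to 8.86 to 29.8 CPM. Fibroblast and matrix genes (10 tested) and neuroectoderm genes (9) had 0 calls with edgeR with the block and 0 at an unadjusted p of 0.05 without it. The smallest adjusted p in each with the block was that of *Col1a2* (0.45 ± 0.30, adjusted p = 0.348) and *Nes* (−0.28 ± 0.10, adjusted p = 0.0873). With the block within each line, 4 fibroblast and matrix genes were higher and 0 lower, and 2 neuroectoderm genes were higher and 1 lower. In that fit 12.1% of all autosomal genes were higher and 10.4% lower. The fibroblast or feeder markers summed to 20.2 to 54.2 CPM in the silencing lines and 10.4 to 17.2 CPM in ΔA. Among them, *Col1a1* was at 38.1 and 5.60 CPM in FL noDOX, so replicates differed as well. The part of these differences in the interaction was not tested.

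Genes of the Notch pathway, through which neighbouring cells settle neural and other fates, were examined after *Dll1* was seen among the larger values. The list, chosen at that point, held not only ligands and receptors but also effector, feedback and target genes and neurogenic factors. Of 18 members tested, 10 were higher and 0 lower (8 and 0 without the low input library), with a median of 0.68. Over this list the median DOX change was 0.53 in FL, 0.59 in ΔB+C and −0.21 in ΔA. The ligand *Dll1* was at 4.27 and 5.01 CPM in FL noDOX, 11.4 and 29.0 in FL DOX, 4.03 and 6.09 in ΔB+C noDOX, 12.2 and 32.7 in ΔB+C DOX, 10.3 and 14.3 in ΔA noDOX and 7.20 and 13.9 in ΔA DOX. In the silencing lines all DOX libraries lay above the noDOX libraries, which were below every ΔA library. Its interaction was 2.36 ± 0.69 without the block (adjusted p = 0.206, and 0.00571 with it). The ligands *Dll3* (1.39), *Jag1* (0.69) and *Jag2* (0.72), the receptors *Notch1* (1.06, adjusted p = 0.056 without the low input library) and *Notch3* (0.92), the nuclear effector *Rbpj* (0.50, adjusted p = 0.0986 without the low input library), the feedback gene *Nrarp* (0.92), and the neurogenic factors *Neurod1* (1.60) and *Insm1* (1.81) were also higher. *Hes1*, a target of the pathway, was at −0.11 ± 0.21 (adjusted p = 0.765).

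**Figure D5:**
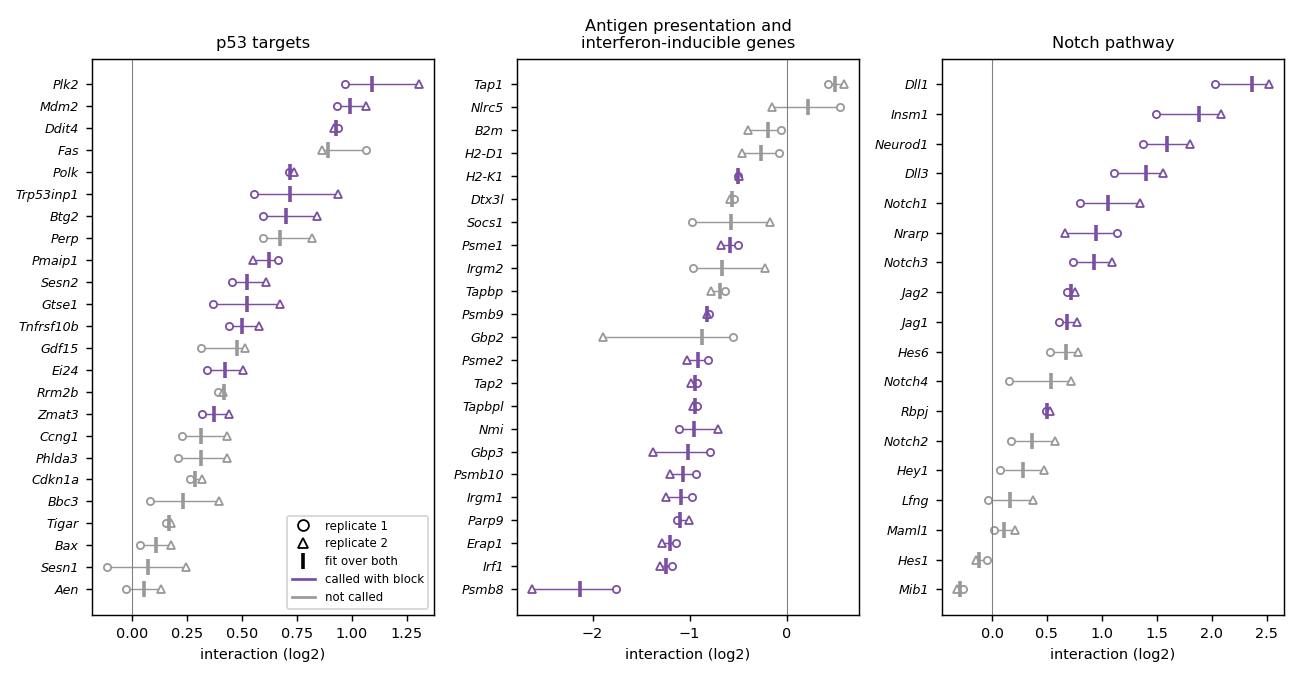
Interaction (log2) of the tested members of the p53, antigen presentation and Notch lists, less 1 that is not reported, from replicate 1 libraries (circles), replicate 2 libraries (triangles) and the fit without the block over both (bars). Purple members were called with the replicate block and grey members were not; the antigen presentation and Notch lists were chosen after values were seen, and *Psmb8* (−2.13) and *Dll1* (2.36) lie farthest from 0.

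Genes that ATF4 induces when amino acids run short or eIF2 is phosphorylated were called in both directions. Of 30 members, 5 were lower and 2 higher, with a median of −0.17. The median DOX change over the list was 0.056 in FL, −0.061 in ΔB+C and 0.22 in ΔA. *Phgdh*, the first enzyme of serine synthesis, was at 331 and 328 CPM in FL noDOX, 322 and 291 in FL DOX, 310.1 and 354 in ΔB+C noDOX, 230.2 and 259.7 in ΔB+C DOX, 306 and 341 in ΔA noDOX and 379 and 399 in ΔA DOX. In ΔA its DOX libraries lay above the noDOX libraries, and in both silencing lines below them. The interaction was −0.54 ± 0.13 without the block (adjusted p = 0.127, and 0.00886 with it; −0.37 for FL and −0.71 for ΔB+C). The lower genes were, besides *Psat1* and *Phgdh*, *Pck2* (−0.70), a mitochondrial phosphoenolpyruvate carboxykinase, the tRNA synthetase *Nars* (−0.39) and *Aldh18a1* (−0.39) of proline synthesis. The higher members, *Ddit4* and *Sesn2*, are on the p53 list as well. *Psph*, which makes serine in the last step, stood at −0.35 ± 0.11 (adjusted p = 0.0668). *Chac1*, a target of ATF4 that degrades glutathione, was at −0.46 ± 0.20 (adjusted p = 0.163).

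*Pck2* is shown as a promoter of this group. Its level was 37.0 and 50.9 CPM in FL noDOX, 40.8 and 47.8 in FL DOX, 35.5 and 51.8 in ΔB+C noDOX, 23.4 and 37.2 in ΔB+C DOX, 41.7 and 63.1 in ΔA noDOX and 60.4 and 81.0 in ΔA DOX. Both ΔA DOX libraries lay above every library of the silencing lines, whose groups overlapped, and the interaction was −0.69 ± 0.37 without the block (adjusted p = 0.483, and 0.00531 with it). Its window (GRCm38.p6, chr14:55540116-55540285, plus strand) holds in capitals a match on the minus strand to the ATF4-type element TGATGNAA, beginning 103 bases before the start site and outside the annotated gene. The motif is present in 3.97% of the 32817 windows of 300 bases, which are longer than the one shown, and *Pck2* was picked for display.
Pck2: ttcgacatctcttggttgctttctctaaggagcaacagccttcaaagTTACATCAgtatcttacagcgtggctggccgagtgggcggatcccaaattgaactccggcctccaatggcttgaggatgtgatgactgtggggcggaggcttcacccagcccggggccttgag
In a list of 16 serine, glycine and one-carbon enzymes chosen after values were seen, 4 were lower, among them *Psat1*, *Phgdh* and the mitochondrial formyltetrahydrofolate dehydrogenase *Aldh1l2* (−0.88), and 1 was higher, *Aldh1l1* (1.10), the cytosolic counterpart of *Aldh1l2*, with a median of −0.22. The median DOX change of these enzymes was −0.00019 in FL, −0.16 in ΔB+C and 0.17 in ΔA. The list of unfolded protein response genes had 2 of 16 members lower, *Herpud1* (−0.78) and the chaperone *Hspa5* (−0.42), and 0 higher.

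Of 41 autosomal genes whose products work in complexes with X-linked proteins, 8 were lower and 0 higher, with a median of −0.10 (7 lower without the low input library). *Eif2s2*, the β subunit of the translation initiation factor eIF2, whose γ subunit is encoded on the X chromosome, was at 469 and 500.0 CPM in FL noDOX, 382 and 387 in FL DOX, 425 and 443 in ΔB+C noDOX, 358 and 320.4 in ΔB+C DOX, 407 and 394 in ΔA noDOX and 486 and 439 in ΔA DOX. The DOX libraries of the silencing lines lay below all others, and the interaction was −0.55 ± 0.11 without the block (adjusted p = 0.0782, and 0.00529 with it). The α subunit gene *Eif2s1* stood at −0.37 ± 0.11 (adjusted p = 0.0484, and 0.0739 without the low input library). The other lower partners were *Taf9* (−0.59), *Nop10* (−0.52), *Thoc7* (−0.50), *Pola2* (−0.49), *Dld* (−0.41) and *Idh3a* (−0.38), which belong to TFIID, the H/ACA ribonucleoprotein, the THO complex, DNA polymerase α, the pyruvate dehydrogenase complex and isocitrate dehydrogenase.

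Autosomal paralogs of X-linked genes were called in both directions. Of 46 tested, 3 were higher and 5 lower (2 and 4 without the low input library), and the median was −0.04. The higher genes were the meiotic cohesin genes *Smc1b* (0.99) and *Stag3* (0.41, adjusted p = 0.0506 without the low input library) and the histone demethylase *Kdm5b* (0.32). The lower genes were the acyl-CoA synthetase *Acsl3* (−0.76), the cullin *Cul4a* (−0.44), the chromatin protein *Hmgb1* (−0.41, adjusted p = 0.0778 without the low input library), the cleavage factor *Cstf2t* (−0.36) and the kinase *Rps6ka2* (−0.32). Reads shared between near-identical copies could be split between them in the counting, and the level of a paralog is uncertain to that extent.

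Members of the lists for ribosomal proteins, ribosome biogenesis and oxidative phosphorylation are counted beside the 4.32% of all autosomal genes that were lower. Cytosolic ribosomal protein genes had a median of −0.19 with 0 of 30 positive, but 1 was called, *Rpl10a* (−0.31 ± 0.09, adjusted p = 0.0665 without the low input library). The median DOX change over this list was 0.0068 in FL, −0.087 in ΔB+C and 0.15 in ΔA, so a rise in ΔA makes up much of the interaction. Mitochondrial ribosomal protein genes had 5 of 30 lower, among them *Mrpl11* (−0.43) and *Mrpl12* (−0.40), and 0 higher, with a median of −0.13. Their median DOX change was −0.023 in FL, −0.078 in ΔB+C and 0.094 in ΔA. Ribosome biogenesis had 2 of 23 lower, the nucleolar genes *Gnl2* (−0.34) and *Nolc1* (−0.30, adjusted p = 0.0622 without the low input library). In oxidative phosphorylation 3 of 30 were lower, such as *Ndufv2* of complex I (−0.43). Median DOX changes in FL, ΔB+C and ΔA were −0.028, −0.097 and 0.062 for ribosome biogenesis and −0.028, −0.096 and 0.068 for oxidative phosphorylation. Without the low input library the last 2 lists and the mitochondrial ribosome list had 1, 2 and 4 lower.

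Both lactate dehydrogenase subunits were called, in opposite directions. *Ldhb* was at 136 and 147 CPM in FL noDOX, 207 and 264 in FL DOX, 155 and 168 in ΔB+C noDOX, 286 and 338 in ΔB+C DOX, 148 and 174 in ΔA noDOX and 155 and 192 in ΔA DOX. Its DOX libraries lay above the noDOX libraries in the silencing lines, with an interaction of 0.73 ± 0.19 without the block (adjusted p = 0.163, and 0.000894 with it). *Ldha* was lower (−0.56 ± 0.15, adjusted p = 0.0424, and 0.0916 without the low input library), as were the glycolytic enzyme *Tpi1* (−0.60) and the lactate exporter *Slc16a3* (−0.50), of 21 glycolysis genes. Hypoxia targets had *Ddit4* and the histone demethylase *Kdm3a* (0.38) higher and *Vegfa* (−0.61, adjusted p = 0.0733 without the low input library) lower of 16.

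Of 23 genes of the cholesterol pathway, 4 were lower and 0 higher. Among the lower genes were those for the enzymes *Idi1* (−0.47 ± 0.10, adjusted p = 0.0179), *Cyp51* (−0.45 ± 0.08, adjusted p = 0.00775) and *Pmvk* (−0.39 ± 0.11, adjusted p = 0.0399). Of 22 lysosomal genes, 3 were higher, the hydrolases *Tpp1* (0.62) and *Gaa* (0.54) and the activator precursor *Psap* (0.39), and 0 lower.

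Among cell cycle genes, *Cdk1* (−0.44 ± 0.08, adjusted p = 0.00839) was the one lower of 24 mitosis genes, and the clamp *Pcna* (−0.37 ± 0.09, adjusted p = 0.0272) and the polymerase subunit *Pola2* (−0.49 ± 0.09, adjusted p = 0.0067) were the lower ones of 26 replication genes. The antioxidant targets of NRF2 had 2 of 20 lower, the malic enzyme *Me1* (−0.56) and the peroxiredoxin *Prdx1* (−0.38, adjusted p = 0.0851 without the low input library). The heat shock list had 1 of 12 lower, the mitochondrial chaperone *Hspd1* (−0.33). Set beside the 4.32% of all autosomal genes that were lower, such small counts describe single genes rather than these lists.

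Chromatin factors were examined because the B and C repeats, absent from one of the silencing lines, recruit Polycomb complexes. Of 26 autosomal Polycomb subunits, 6 were higher and 1 lower, with a median of 0.17. The higher genes were the PRC2 cofactors *Phf19* (0.87 ± 0.16), *Phf1* (0.74 ± 0.18) and *Jarid2* (0.51 ± 0.09), the methyltransferase *Ezh1* (0.46), and the PRC1 members *Pcgf3* (0.45) and *Phc1* (0.37). *Yaf2*, a PRC1 subunit, was lower (−0.60 ± 0.16, adjusted p = 0.0619 without the low input library). Against ΔA, 1 subunit was called higher in FL and 5 in ΔB+C, beside 1.38% and 4.42% of all autosomal genes. A difference in these counts between the lines thus goes with more calls in ΔB+C over all genes. *Jarid2* stood at 0.51 in either line.

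*Tet1*, a methylcytosine oxidase of ES cells, was the only one called of 13 DNA methylation genes. It was at 125 and 132 CPM in FL noDOX, 169.6 and 219 in FL DOX, 143 and 144 in ΔB+C noDOX, 199 and 211 in ΔB+C DOX, 246 and 311 in ΔA noDOX and 198 and 262 in ΔA DOX. In the silencing lines its noDOX libraries lay below every ΔA library and its DOX libraries above the noDOX libraries, with an interaction of 0.84 ± 0.20 without the block (adjusted p = 0.14, and 0.00267 with it). Among 20 autosomal partners of *Xist* RNA and silencing factors, *Spen* (0.59 ± 0.13), whose product binds the A repeat, and *Rbm15* (0.52 ± 0.10), an adaptor of RNA methylation, were higher, and the lamin B receptor *Lbr* (−0.31 ± 0.08) and the deacetylase *Hdac3* (−0.30 ± 0.08) lower. The DOX changes of *Spen* were 0.10 and 0.39 in FL, 0.27 and 0.48 in ΔB+C and −0.25 and −0.31 in ΔA on the log2 scale.

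Of 16 germline genes 4 were higher, the piRNA factor *Piwil2* (0.89) and the meiotic genes *Hormad1* (0.95), *Rec8* (0.72) and *Stag3*, and 0 lower. Of 30 imprinted genes, *Peg3* was higher (0.41) and *Ndn* lower (−0.50), no larger a part than the 5.16% and 4.32% of all autosomal genes. The 3 replication-dependent histone genes tested had 0 calls with edgeR and 0 at an unadjusted p of 0.05 without the block.

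Among signalling lists, *Msx1* (−1.27 ± 0.25, adjusted p = 0.015), a homeobox gene induced by BMP, was the only call among 14 BMP genes, and it and *Hopx* (−0.99) were the lower ones of 18 homeobox genes. Against ΔA, *Hopx* was at −0.53 in FL (edgeR with the block, adjusted p = 0.206) and −1.45 in ΔB+C (adjusted p = 0.00454). The Wnt feedback gene *Nkd1* (−0.82 ± 0.19) and *Lef1* were the lower ones among 15 Wnt targets. The list of 20 FGF-ERK genes had 0 calls with edgeR with the block, and 2 higher and 0 lower at an unadjusted p of 0.05 without it. *Spred1*, an inhibitor of Ras signalling, was nearest to the threshold (0.44 ± 0.13, adjusted p = 0.0533). *Pecam1*, a surface protein of endothelium that ES cells also make, was at 33.0 and 48.2 CPM in FL noDOX, 78.0 and 117 in FL DOX, 28.9 and 46.6 in ΔB+C noDOX, 73.0 and 142 in ΔB+C DOX, 14.0 and 31.0 in ΔA noDOX and 16.6 and 32.9 in ΔA DOX. DOX libraries of the silencing lines were the highest, with an interaction of 1.21 ± 0.17 (adjusted p = 0.00229). The lists described above without a median had medians from −0.17 for NRF2 targets to 0.36 for histones.

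By chromosome, calls with the block made up 7.31% to 11.4% of the genes tested on each autosome other than chromosome 19, where they made up 14.4%. On chromosome 19, 54 genes were lower and 11 higher of 451 tested, and the median interaction was −0.11. On chromosome 11, 86 were higher and 23 lower of 1113, with a median of 0.0789. On the other 17 autosomes the median lay between −0.0521 and 0.0519. Without DOX, the median gene of chromosome 19 was 0.20 higher in FL and 0.35 higher in ΔB+C than in ΔA, on the log2 scale, that of chromosome 11 0.34 and 0.20, and that of chromosome 8 0.14 and 0.26. For chromosome 12 the differences from ΔA were −0.18 in FL and −0.17 in ΔB+C. *Psat1* lies on chromosome 19, *Vrtn* on chromosome 12, *Irf1*, *Car4*, *Zfp750* and *Irgm1* on chromosome 11, and *Cdh3*, *Man2b1*, *Sntb2*, *Psmb10* and *Herpud1* on chromosome 8. The part of these differences between lines in the response to DOX was not tested.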

How the data were processed

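RNA-seq libraries were made by the authors from 3 ES cell lines with and without DOX, in biological duplicate. Per the submitters' processing notes, reads were aligned to mm10 with TopHat2 2.1.0 and assigned to genes with featureCounts 1.5.1. The deposited values are raw counts per gene, 1 table per library, 31337490 to 41240470 counts each, and all 24627 genes of the tables were read. The annotation was refFlat, and no strand setting is given in the sources used here, so reads of a gene and an overlapping or antisense gene cannot be told apart. Groups follow the labels, also for replicate 1 of ΔB+C noDOX, whose table is named as if it were a DOX library.

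Counts were fitted with edgeR 4.0.16 (quasi-likelihood, robust) as 6 group means, with TMM factors from autosomal genes, for genes that reached 1 CPM in 6 or more libraries, and p-values were adjusted by Benjamini–Hochberg over all 13191 genes tested (threshold 0.05). With duplicates, p-values measure the spread between these cultures. The replicate numbers come from the labels. Deviations of same-numbered libraries from their group means correlated in all 15 pairs of groups (r from 0.388 to 0.768, mean 0.605), and the fit with the number as a block was given beside the fit without it. Alternatives were DESeq2 1.42.0, voom of limma 3.58.1, other scalings and filters, and fits without single libraries. The computations ran in R 4.3.3 and Python 3.11.15 and were tested on simulated data.

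The members and the 37 functional lists were chosen with earlier results of these data known, and 4 more lists (antigen presentation, Notch, LIF, serine and one-carbon enzymes) after gene values were seen, so none is independent evidence. The text names up to 12 genes per direction with a mean of at least 5 CPM whose silencing pairs all lay on one side of both ΔA pairs, first those past the threshold and then by the smallest p with the block, next the list members past it, up to 2 members of every other list with the smallest p with the block, and 2 genes on each side of the threshold. Other list members were chosen after their values were seen. Gene positions are from GENCODE vM21 and promoter windows (250 bases before to 50 after each start) from RefSeq, GRCm38.p6. Some list members are counted but not reported by name here.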

Additional observations from a re-analysis of the deposited data

Results flagged for a closer look

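The response to DOX differed between the silencing lines and *Xist* ΔA, by edgeR's test of the interaction term, for 14 autosomal genes. The interactions were, on the log2 scale, 2.43 for *Cpz*, 1.90 for *Zfp750*, 1.81 for *Trim36*, 1.27 for *Cdh3*, 1.22 for *Arhgef28*, 1.20 for *Sdc4*, 1.00 for *Man2b1*, 1.00 for *Slc39a14* and 0.91 for *Sntb2*. They were −1.25 for *Irf1*, −0.94 for *Smo*, −0.89 for *Car4*, −0.88 for *Vrtn* and −0.87 for *Psat1*. With 2 replicates per group, no library was tested for standing apart from its own group.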

How the results depend on the processing

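Samples with the same replicate number deviated together, and the replicate block raised the autosomal calls from 9 higher and 5 lower to 656 and 549, from 0 to 266 for FL minus ΔA, and from 9 to 1020 for ΔB+C minus ΔA. With the replicate block within each line they were 1533, 1328, 1401 and 2668, and ΔA itself had 2 calls. DESeq2 gave 179 higher, 126 lower, 61, 286 and 1 for ΔA. Library totals alone gave 3 lower and 4 for ΔB+C minus ΔA, and no filter on low counts gave 17 higher, 1 for FL minus ΔA and 15 for ΔB+C minus ΔA. Chosen after seeing the data, the replicate block without ΔB+C DOX replicate 2 gave 554 higher, 467 lower, 412 and 588, and limma-voom with the replicate block gave 669, 574, 266 and 1042. The cause was not tested. All 14 genes kept their calls under each of these settings except library totals alone, which kept 12, and a minimum of 5 CPM kept 13. Leaving out 1 library gave 0 to 23 higher, 0 to 12 lower, and 0 to 1 calls for ΔB+C minus ΔA, with 0 in every such fit for FL minus ΔA and for ΔA. In those fits the lone library of a group is assumed to vary like the others. Some genes not called changed sign when 1 library was left out. Their interactions ranged from −0.74 to 0.25 for *Nes*, −0.071 to 0.61 for *Cdkn1a*, −0.13 to 1.95 for *Klf4*, −0.12 to 1.49 for *Tbx3* and −0.37 to 0.20 for *Hes1*, and *Col1a2* was at −0.072 without replicate 2 of every group. Duplicates limit the fit without the block to 6 residual degrees of freedom.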
